A study of Mus musculus with 15 samples.

Results

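The genes described here are the mouse Wnt ligands, their Frizzled receptors, the secreted antagonists of the pathway, and Axin2 and Lef1, which report on Wnt signalling inside the cell. They were taken by gene symbol, as every probe set whose Entrez ID maps to a Wnt, Fzd, Sfrp1 to Sfrp5 or Dkk1 to Dkk4 gene or to Axin2, Lef1, Frzb or Wif1. This gave 41 of the 25206 probe sets on the array: 19 ligands, 10 receptors, 10 secreted antagonists and the 2 intracellular genes. They were followed while induced pluripotent stem cells (iPSC) of the mouse were directed to become smooth muscle. The cultured cells came from 1 iPSC line with Acta2hrGFP, a reporter whose green fluorescent protein (GFP) follows the smooth muscle actin gene Acta2. There were 5 groups of 3 samples: undifferentiated iPSC at day 0, cells sorted for Kdr (also called Flk-1, a receptor of early mesoderm) at day 5, day 13 cells sorted into GFP+ and GFP-, and primary aortic Acta2hrGFP+ smooth muscle cells as positive controls. All groups carried the reporter, and the labels give no other treatment or allele, and no strain, age or sex for the aortic samples.

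Every value is a deposited RMA value, read as log2 from its range, so a difference of 1 is a 2-fold difference. Sample medians lay between 4.08 and 4.29, and within a group the samples correlated at 0.977 to 0.995 (Pearson's r across genes, which are no independent replicates). The sort gene Kdr was at 9.64 at day 5, against 3.24 at day 0. Acta2, whose promoter activity the reporter follows, was at 11.32 in day 13 GFP+ cells, against 10.67 in day 13 GFP- cells, a difference that did not pass (limma adjusted p = 0.151), and both lay far above the 5.93 of day 5. Myh11, the smooth muscle myosin that defines mature contractile cells, was at 4.64 in day 13 GFP+ and 4.36 in day 13 GFP- cells, against 11.03 in the aortic samples. On the fourth principal component (3.36% of the variance) the day 13 samples numbered 3 stood at 0.35 (GFP+) and 0.75 (GFP-), while those numbered 5 and 6 lay between -0.35 and -0.16. Precision is set by the number of arrays, 3 in each group. The labels call the samples biological triplicates without saying how separate they were, so p-values measure the spread between these samples. As the samples are bulk RNA, fewer cells of a type and less RNA per cell cannot be told apart.

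Wnt proteins are secreted lipid-modified ligands that bind Frizzled receptors. With the co-receptors Lrp5 and Lrp6 they stop the destruction of beta-catenin, which then joins Lef1 and Tcf factors at target genes such as Axin2, itself a scaffold of the destruction complex and a negative feedback gene. Other ligands, Wnt5a and Wnt11 among them, act mostly without beta-catenin, in part through the receptor Ror2. Sfrp proteins, Frzb and Wif1 bind the ligands outside the cell, and Dkk1 blocks the co-receptors. In the mouse embryo Wnt3 is required for the primitive streak, from which mesoderm forms, and Wnt signals act again later as vessels and heart are built.

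In 20 of the 41 members the highest and lowest group means differed by at least 2 on the log2 scale: 8 of 10 antagonists, 6 of 10 receptors, 4 of 19 ligands and both intracellular genes. Of these 20, 7 were highest at day 5, 8 in the aortic samples, 3 in day 13 GFP+ cells, 1 in day 13 GFP- cells and 1 at day 0. A further 10 members (Wnt1, Wnt3a, Wnt7a, Wnt8a, Wnt8b, Wnt9b, Wnt10a, Wnt10b, Fzd9 and Dkk4) passed the test in none of 6 comparisons, with group means between 2.73 and 4.44. Neither the range nor the number of comparisons passed was counted over all probe sets. These counts therefore describe the members only and are not set against the array as a whole. The files hold no detection calls, so the 1082 olfactory receptor probe sets were used to describe the low end of the array. The 95th percentile of their group means lay between 3.63 and 3.99. Wnt1, Wnt7a, Wnt8b, Wnt10b, Fzd9 and Dkk4 stayed under it in all 5 groups. Folds against a level near or under these percentiles, such as Wnt3 or Frzb at day 0, are shaped by the floor of the array as well.

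**Figure D1:**
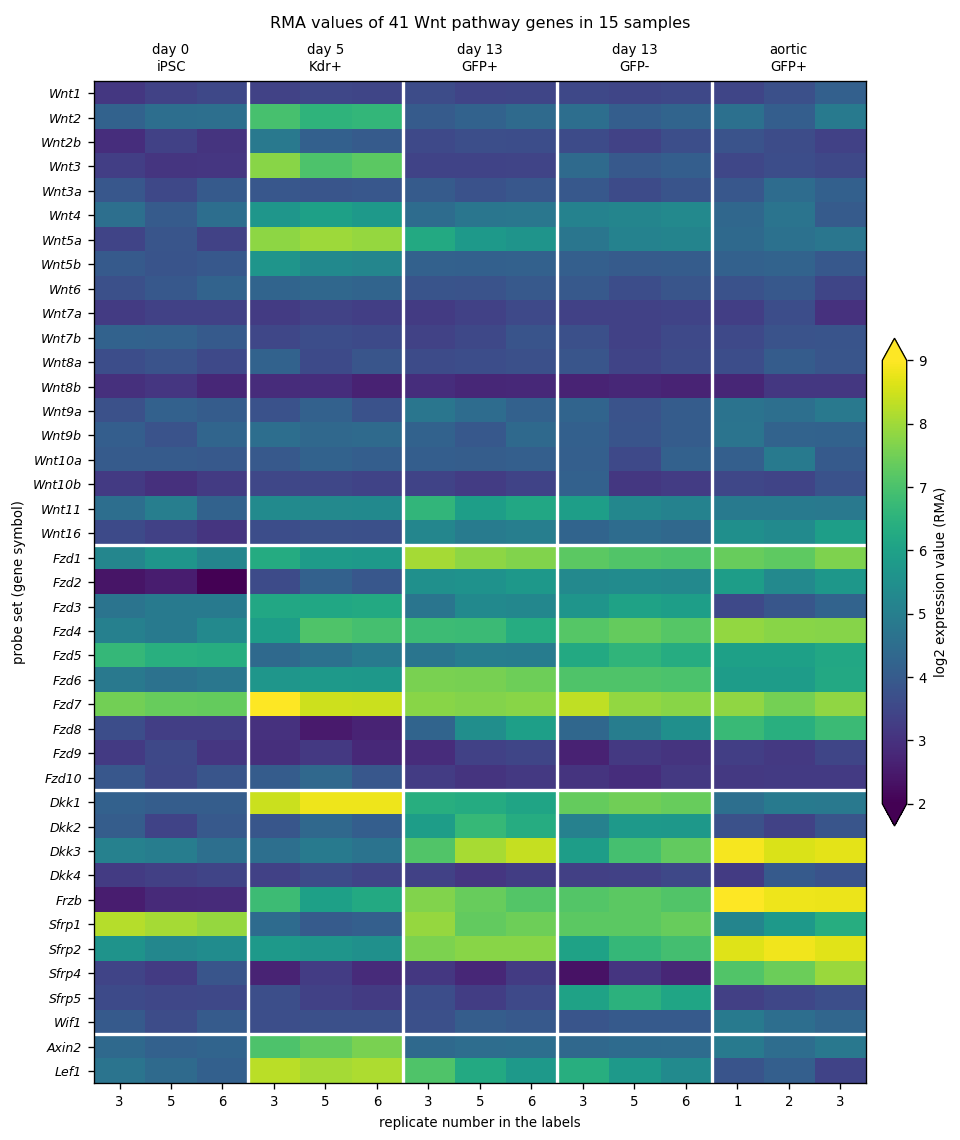
The deposited log2 RMA values of the 41 genes (rows) in the 15 samples (columns, by replicate number), with white lines between groups and between ligands, receptors, antagonists and the intracellular genes. Wnt3, Wnt5a, Dkk1, Axin2 and Lef1 are brightest in the day 5 columns, and Dkk3, Frzb, Sfrp2 and Sfrp4 in the aortic columns.

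Cells sorted for Kdr at day 5 were set against undifferentiated iPSC to ask which Wnt components change as pluripotent cells become mesoderm. Of the 41 members 17 rose and 3 fell (limma, adjusted p under 0.05), where 14.9% of all probe sets rose, 13.9% fell and 28.8% did either. Differences of at least 1 passed in 16 members (39%), against 11.4% of all probe sets. The groups did not overlap in 26 members (63.4%), against 46% of all probe sets. The median difference was 0.34 over the members and -0.01 over all probe sets. Both intracellular genes, 7 ligands, 6 receptors and 2 antagonists rose.

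Axin2 had values of 7.06, 7.31 and 7.60 in day 5 samples 3, 5 and 6, against 4.39, 4.16 and 4.24 at day 0. Lef1 had 8.26, 8.04 and 8.14 at day 5, against 4.69, 4.42 and 4.16 at day 0. The groups lay far apart for both genes. Axin2 was 8.3-fold higher at day 5 (log2 difference 3.05, SE 0.142, limma adjusted p = 2.28e-10) and Lef1 13.3-fold higher (3.73, SE 0.297, adjusted p = 1e-07). The list of other beta-catenin target genes moved the same way, with 10 of 13 members higher, 0 lower and 3 not past the threshold (median 1.18, against -0.01 over all probe sets). T (Brachyury), the streak transcription factor, had a log2 difference of 4.58, Tnfrsf19, a receptor gene of the tumour necrosis factor family, of 3.24 and the Wnt feedback gene Nkd1 of 2.65.

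Among the ligands, Wnt3 and Wnt5a had the largest differences. Wnt3 had values of 7.74, 7.03 and 7.24 at day 5, against 3.30, 3.08 and 3.11 at day 0 (18.1-fold higher, SE 0.164, adjusted p = 3.38e-11). Wnt5a had 7.82, 7.97 and 7.90 at day 5, against 3.42, 3.85 and 3.38 at day 0 (20.3-fold higher, SE 0.177, adjusted p = 5.08e-11). Thus a ligand known for beta-catenin signalling in the streak and one known for signalling without it were both high in the same sorted cells. Wnt2, a ligand of early cardiovascular mesoderm, had 6.98, 6.56 and 6.62 at day 5, against 4.19, 4.53 and 4.55 at day 0 (4.92-fold higher, adjusted p = 2.19e-07). Wnt5b (log2 difference 1.49), Wnt4 (1.44) and Wnt2b (1.22) rose as well, all without overlap between the groups. Wnt11 differed by 0.76 (limma adjusted p = 0.0175), a call that ended without day 0 sample 3 (0.0502), without day 0 sample 6 (0.101) or without day 5 sample 3 (0.0516). The only ligand that fell was Wnt7b, by 0.55 on the log2 scale, and Wnt3a, a close paralog of Wnt3, stood at 3.88 at day 5 and 3.80 at day 0.

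**Figure D2:**
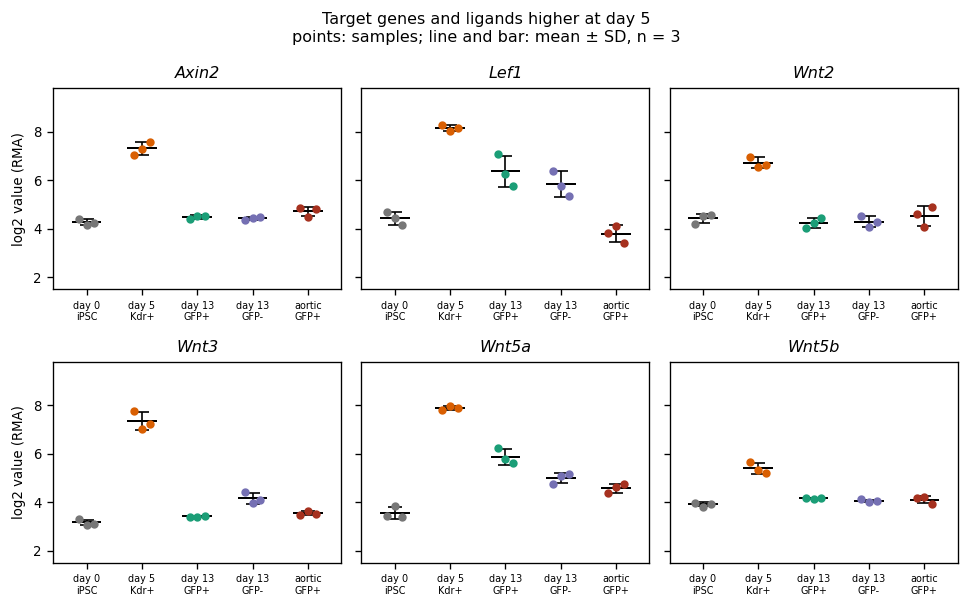
Log2 RMA values (vertical axis) of Axin2, Lef1 and 4 ligands in each sample of the 5 groups, with the mean and SD of 3 samples as line and bar. All 6 genes are highest in the day 5 Kdr+ samples, Wnt3 at 7.03 to 7.74, and in both day 13 sorts Lef1 and Wnt5a lie between their day 0 and day 5 levels.

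Of the Frizzled receptors 6 of 10 rose and 1 fell. Fzd7, a main receptor of pluripotent cells, was higher at day 5 (8.67 ± 0.36, against 7.41 ± 0.08 at day 0, SD, n = 3 each). Fzd2 had values of 3.61, 4.16 and 3.89 at day 5, against 2.40, 2.56 and 1.93 at day 0 (log2 difference 1.59). Fzd4, a receptor of vascular cells, had 5.91, 7.06 and 6.94 at day 5, against 5.06, 4.87 and 5.30 at day 0 (1.56), with day 5 sample 3 well under samples 5 and 6. Fzd3, known from axon guidance and tissue polarity, had 6.19, 6.17 and 6.25 at day 5, against 4.69, 4.86 and 4.88 at day 0 (1.39). Fzd5 went the other way, with 4.40, 4.62 and 4.89 at day 5, against 6.67, 6.40 and 6.36 at day 0 (3.59-fold lower, SE 0.147, adjusted p = 1.01e-07). Fzd6 (0.98) and Fzd1 (0.62) also rose, and the call of Fzd1 ended without day 0 sample 6 (limma adjusted p = 0.0552) or day 5 sample 3 (0.0721).

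Among the antagonists Dkk1 and Frzb rose while Sfrp1 fell. Dkk1 had values of 8.43, 8.81 and 8.82 at day 5, against 4.17, 4.06 and 4.07 at day 0, 24-fold higher (log2 difference 4.59, SE 0.134, adjusted p = 1.71e-12). Frzb, also known as Sfrp3, had 6.79, 5.98 and 6.25 at day 5, against 2.56, 2.85 and 2.85 at day 0 (12-fold higher, adjusted p = 8.09e-10). Sfrp1 had 4.43, 4.01 and 4.12 at day 5, against 8.21, 8.06 and 7.91 at day 0 (14.6-fold lower, SE 0.23, adjusted p = 3.86e-09). Sfrp1 and Frzb, which belong to the same family, thus moved in opposite directions. The remaining 7 antagonists did not pass.

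The upstream sequences of Dkk1 and Axin2 are shown because both genes peaked at day 5 and are known targets of beta-catenin. They are the 250 bases before the annotated start (RefSeq, GRCm38.p6), with matches to the Tcf and Lef core in capitals. The search used the motif CTTTGAA, the motif CTTTGAT, the motif CTTTGTA and the motif CTTTGTT on both strands. Dkk1 lies on the minus strand at chr19:30549497-30549746 and Axin2 on the plus strand at chr11:108920099-108920348.
Dkk1: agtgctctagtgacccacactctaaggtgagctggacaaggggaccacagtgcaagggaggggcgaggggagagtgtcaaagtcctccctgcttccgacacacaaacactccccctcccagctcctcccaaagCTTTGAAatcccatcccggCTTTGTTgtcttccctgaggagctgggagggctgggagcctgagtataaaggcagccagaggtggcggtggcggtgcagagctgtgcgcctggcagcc
Axin2: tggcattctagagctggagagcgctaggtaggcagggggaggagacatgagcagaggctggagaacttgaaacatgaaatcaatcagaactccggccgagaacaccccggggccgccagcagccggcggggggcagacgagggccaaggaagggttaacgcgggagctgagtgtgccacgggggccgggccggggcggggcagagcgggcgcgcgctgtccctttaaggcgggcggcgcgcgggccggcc
Dkk1 holds 2 matches, beginning 117 and 98 bases before the start and not overlapping, and Axin2 holds 0 in this window. At least 1 match is present in 14.8% of all 32851 promoter windows and at least 2 in 1.43%. The table has windows for 29 of the 41 members, 35 windows in all, of which 5 (14.3%) hold a match. The other matches lie upstream of Fzd7, 1 of the 2 Wnt11 starts, 1 of the 3 Wnt5b starts and 1 of the 4 Lef1 starts. A match describes letters only.

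The rest of the pathway was also compared between day 5 and day 0, where 14.9% of all probe sets rose and 13.9% fell. In the list of Wnt secretion and R-spondin genes 6 of 14 rose and 2 fell. Wls, the carrier that takes Wnt proteins to the cell surface, was 8.62 at day 5 and 4.42 at day 0 (log2 difference 4.20). Rspo3, a secreted enhancer of Wnt signals, was 7.07 at day 5 and 2.92 at day 0 (4.15). Porcn, the enzyme that attaches the lipid to Wnt proteins, was 4.78 at day 5 and 8.25 at day 0 (-3.46, adjusted p = 9.79e-10). The carrier and the enzyme, which act on the same proteins, thus moved apart. In the intracellular chain 7 of 17 genes rose and 0 fell, led by the beta-catenin cofactor genes Bcl9 (2.19), Bcl9l (1.82) and Pygo2 (1.22). The co-receptor list had 3 of 8 higher and 1 lower, Ror2 (-1.20), with Ptk7 and Ror1 each at 0.70. The planar polarity list had 3 of 9 higher and 0 lower (Daam2 2.28, Prickle1 0.99, Vangl2 0.80). In the list of other secreted antagonists Igfbp4 rose (2.37), Dkkl1 fell (-0.74) and 4 of 6 did not pass. Beside these changes, 8 of 8 early mesoderm markers were higher and 7 of 8 pluripotency markers lower at day 5. The mesoderm list includes Kdr, whose rise follows from the sort.

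The day 13 sorts were each compared with the day 5 cells to ask which components stay on. Both comparisons use the same day 5 samples, which are also those set against day 0, so a member high at day 5 enters all of them. In GFP+ cells 12 members rose and 13 fell, where 14.3% of all probe sets rose, 16.9% fell and 31.2% did either. Differences of at least 1 passed in 19 members (46.3%), against 14.7% of all probe sets, and 25 members (61%) did not overlap, against 45.3% of all probe sets. In GFP- cells 12 rose and 12 fell, where the shares of all probe sets were 12%, 13.9% and, for either, 26%. Differences of at least 1 passed in 17 members (41.5%), against 10.2% of all probe sets, and 28 members (68.3%) did not overlap, against 39.6%. Of 19 ligands 3 were higher and 7 lower in GFP+ cells, and 1 higher and 7 lower in GFP- cells. Of 10 antagonists 5 were higher and 1 lower in GFP+ cells, and 6 higher and 1 lower in GFP- cells. Of 10 receptors 4 were higher and 3 lower in GFP+ cells, and 5 higher and 2 lower in GFP- cells.

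Axin2 was low again in both sorts, at 4.40, 4.50 and 4.53 in GFP+ samples 3, 5 and 6 and 4.36, 4.46 and 4.48 in GFP- samples, against 7.06 to 7.60 at day 5. Its log2 difference from day 5 was -2.84 in GFP+ cells (7.18-fold lower, adjusted p = 7.42e-10) and -2.89 in GFP- cells (7.4-fold lower, adjusted p = 1.16e-09). Lef1 fell less far, to 7.07, 6.25 and 5.78 in GFP+ cells and 6.39, 5.77 and 5.36 in GFP- cells. The sample numbered 3 was the highest of each sort for Lef1. Of the other beta-catenin target genes 7 of 13 were lower and 0 higher in GFP+ cells (median -0.98), and 8 of 13 lower and 0 higher in GFP- cells (median -1.03). T differed from day 5 by -4.56 in GFP+ and -4.26 in GFP- cells, Tnfrsf19 by -3.50 and -3.09, and Apcdd1, which encodes a membrane inhibitor of Wnt, by -2.83 in GFP+ cells. Tcf7, the partner of beta-catenin in the same family as Lef1, fell by 3.00 in GFP+ and by 2.22 in GFP- cells.

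Wnt3 had values of 3.41, 3.40 and 3.43 in GFP+ cells and 4.41, 3.96 and 4.10 in GFP- cells, which is 15.2-fold and 9.06-fold lower than at day 5. Wnt2 had 4.02, 4.21 and 4.42 in GFP+ and 4.53, 4.08 and 4.26 in GFP- cells (5.66-fold and 5.38-fold lower). Wnt5a kept an intermediate level, with 6.24, 5.77 and 5.61 in GFP+ and 4.75, 5.10 and 5.15 in GFP- cells. It was 4.06-fold lower than at day 5 in GFP+ cells (adjusted p = 2.49e-07) and 7.44-fold lower in GFP- cells (adjusted p = 1.17e-08). Wnt5b (log2 difference -1.24 in GFP+ and -1.34 in GFP-) and Wnt4 (-1.14 and -0.62) were also lower in both sorts. The call of Wnt4 in GFP- cells ended without day 5 sample 5 (limma adjusted p = 0.0872), without GFP- sample 3 (0.0526) or without GFP- sample 5 (0.053). One ligand rose by more than 1, Wnt16, a ligand known from bone. It had 5.21, 4.92 and 4.99 in GFP+ cells, against 3.65, 3.75 and 3.70 at day 5 (2.53-fold higher, adjusted p = 5.44e-06), and 4.26, 4.48 and 4.35 in GFP- cells (log2 difference 0.67, adjusted p = 0.00428).

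Fzd1, Fzd2, Fzd6 and Fzd8 were higher than at day 5 in both sorts. Fzd1 had 8.04, 7.80 and 7.66 in GFP+ and 7.23, 7.10 and 7.03 in GFP- cells, against 6.30, 5.84 and 5.78 at day 5 (3.64-fold and 2.21-fold higher). Fzd6 had 7.58, 7.56 and 7.46 in GFP+ and 7.07, 7.06 and 7.02 in GFP- cells, against 5.68, 5.77 and 5.72 at day 5 (3.49-fold and 2.5-fold higher). These receptors were tight within each sort. Fzd8 was not: it had 4.26, 5.46 and 5.96 in GFP+ and 4.35, 4.97 and 5.47 in GFP- cells, against 3.00, 2.50 and 2.69 at day 5 (5.64-fold and 4.6-fold higher), with the sample numbered 3 lowest in each sort. Fzd2 was 3.29-fold higher in GFP+ and 2.71-fold higher in GFP- cells, and reached 5.50 to 5.74 in GFP+ and 5.29 to 5.38 in GFP- samples. Fzd5 rose in GFP- cells (3.4-fold, adjusted p = 2.87e-07). Fzd3 fell in GFP+ cells (by 1.11, adjusted p = 0.000138), while Fzd10 fell in both sorts (by 0.95 in GFP+ and by 1.06 in GFP- cells). The mean of Fzd10 was only 4.10 at day 5. At day 13 it was 3.15 in GFP+ and 3.05 in GFP- cells, under the olfactory receptor percentile. Fzd7 was lower in both sorts as well (log2 difference -0.93 in GFP+ and -0.68 in GFP- cells). Its call in GFP- cells ended without day 5 sample 3 (limma adjusted p = 0.0557) or without GFP- sample 6 (0.0516). Fzd4 passed in neither sort.

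**Figure D3:**
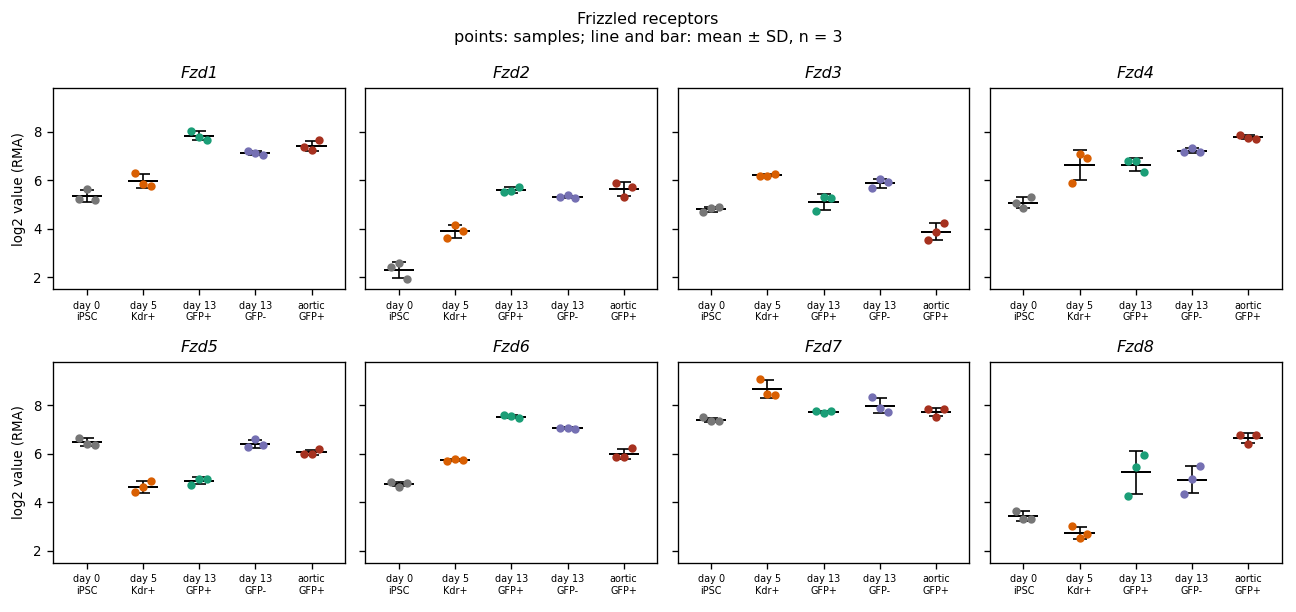
Log2 RMA values (vertical axis) of 8 Frizzled receptors in each sample of the 5 groups, with mean and SD of 3 samples. Fzd1, Fzd2, Fzd6 and Fzd8 are higher in both day 13 sorts than at day 5, while Fzd5 is high at day 0, in day 13 GFP- and in the aortic samples and low at day 5 and in day 13 GFP+ cells.

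Among the antagonists Sfrp1 rose again and Dkk1 fell. Sfrp1 had 7.90, 7.33 and 7.47 in GFP+ and 7.24, 7.24 and 7.36 in GFP- cells, and was 10.4-fold higher than at day 5 in GFP+ cells (adjusted p = 1.69e-08) and 8.53-fold in GFP- cells (adjusted p = 8.79e-08). Dkk1 fell to 6.39, 6.30 and 6.09 in GFP+ and 7.36, 7.49 and 7.39 in GFP- cells, 5.39-fold and 2.42-fold lower than at day 5. Its relatives Dkk2 and Dkk3 rose. Dkk3, a divergent member of the family that does not bind the Lrp co-receptors, had 7.10, 8.09 and 8.38 in GFP+ and 5.91, 6.94 and 7.32 in GFP- cells, against 4.56, 4.85 and 4.67 at day 5 (8.94-fold and 4.08-fold higher). Dkk2 had 5.89, 6.70 and 6.33 in GFP+ and 5.07, 5.79 and 5.73 in GFP- cells, against 3.86, 4.37 and 4.09 at day 5 (4.61-fold and 2.68-fold higher). For Dkk2 and Dkk3 the sample numbered 3 was again the lowest of each sort. Sfrp2 had 7.63, 7.77 and 7.74 in GFP+ cells, against 5.78, 5.65 and 5.51 at day 5 (4.19-fold higher, adjusted p = 2.24e-07), and was 6.04, 6.67 and 6.91 in GFP- cells (log2 difference 0.89). Frzb, already high at day 5, had 7.68, 7.38 and 7.12 in GFP+ and 7.12, 7.24 and 7.09 in GFP- cells (log2 difference 1.05 and 0.81). Sfrp5 rose in GFP- cells, by 2.80 (6.95-fold, adjusted p = 6.13e-09), and did not pass in GFP+ cells. Beside the rise of Sfrp5 and Fzd5, 9 of 10 endoderm markers were higher in GFP- cells than at day 5, and their part was not tested.

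**Figure D4:**
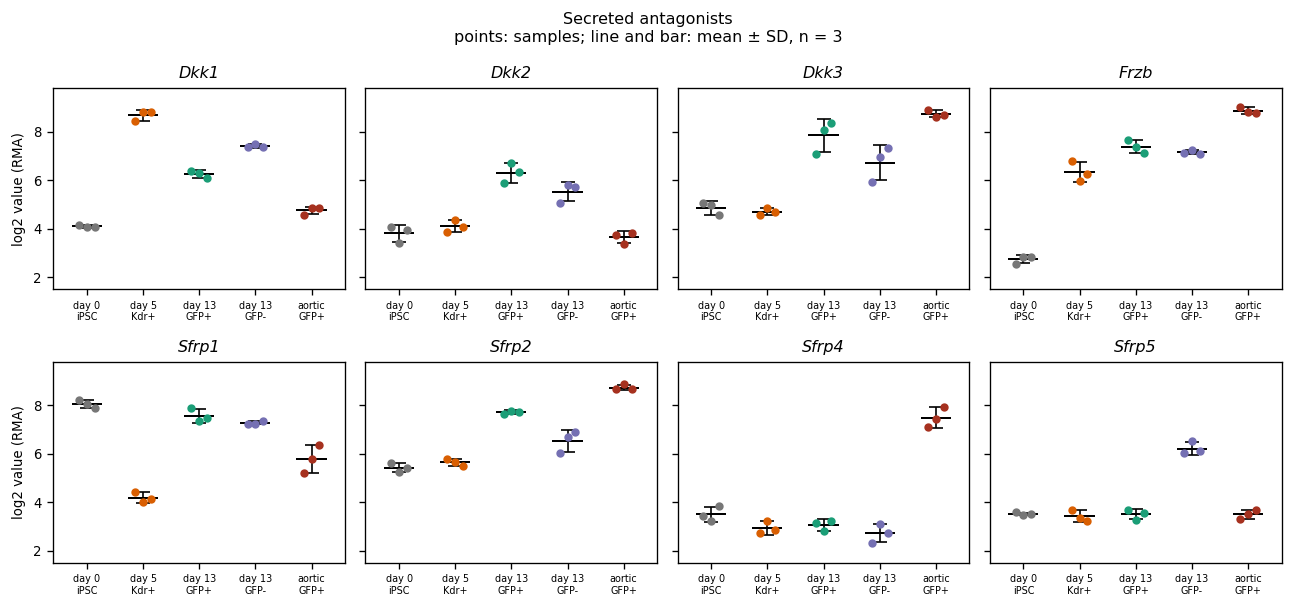
Log2 RMA values (vertical axis) of 8 secreted antagonists in each sample of the 5 groups, with mean and SD of 3 samples. Dkk1 peaks at day 5, where Sfrp1 is lowest, Sfrp5 stands at 6.03 to 6.51 in day 13 GFP- samples and at 3.69 or under elsewhere, and Sfrp4 is high in the aortic samples.

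Outside the members, some genes of the list of co-receptors and alternative receptors were higher at day 13. Ror2, the Wnt5a receptor, had a log2 difference of 2.38 in GFP+ and 1.26 in GFP- cells, and its relative Ror1 of 2.56 and 1.99. Kremen1, a receptor for Dkk proteins, followed with 1.22 in GFP+ cells. In that list 4 of 8 genes were higher in GFP+ and 3 of 8 in GFP- cells, with 0 lower in either. Of 14 secretion and R-spondin genes 5 rose and 2 fell in GFP+ cells, and 4 rose and 3 fell in GFP- cells. They were led by Gpc4, a cell surface proteoglycan (3.34 in GFP+, 4.03 in GFP-), and Porcn (1.49 and 1.57). The planar polarity list had 4 of 9 higher and 3 lower in GFP+ cells, and 4 higher and 2 lower in GFP- cells, with Daam2 at 1.90 and 1.22. In the intracellular chain 4 rose and 4 fell of 17 in GFP+ cells, and 2 rose and 4 fell in GFP- cells. Of the other secreted antagonists 2 of 6 rose and 0 fell in each sort. Beside these values, all 10 proliferation markers were lower than at day 5 in both sorts, and contractile smooth muscle markers were higher in 10 of 10 in GFP+ and 7 of 10 in GFP- cells. Cardiac muscle markers were higher in 3 of 8 in GFP+ and 4 of 8 in GFP- cells, with a summed level of 10.32 to 10.64 in GFP+ and 10.28 to 10.74 in GFP- samples, against 7.60 to 7.66 at day 5. Fibroblast and adventitial markers were higher in 4 of 8 and lower in 1 in each sort. Endothelial markers were higher in 1 of 8 in GFP+ and 6 of 8 in GFP- cells, and epithelial markers in 1 of 7 (with 3 lower) in GFP+ and 4 of 7 in GFP- cells. The part of these cell types was not tested.

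The day 13 sorts were compared with each other to ask which Wnt components go with reporter activity. Of the 41 members 5 were higher and 5 lower in GFP+ cells, where 2.02% of all probe sets were higher, 2.52% lower and 4.53% either. Of 10 contractile smooth muscle markers 8 did not pass between the sorts, Tagln was higher (1.04) and Myocd lower (-1.44) in GFP+ cells. The median difference was 0.10 over the members and 0.01 over all probe sets. The groups did not overlap in 15 members (36.6%), against 19.5% of all probe sets. Differences of at least 1 were found in 4 members (9.76%), against 1.53% of all probe sets: Sfrp5, Fzd5 and Dkk1 were lower and Sfrp2 was higher in GFP+ cells.

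Sfrp5, an antagonist known from foregut endoderm, had values of 3.66, 3.27 and 3.55 in GFP+ cells, against 6.03, 6.51 and 6.11 in GFP- cells. It was 6.58-fold lower in GFP+ cells (log2 difference -2.72, SE 0.161, adjusted p = 2.12e-07). The GFP+ values lay in the range of the day 0, day 5 and aortic samples, so the GFP- samples alone stood apart. Fzd5, a receptor also known from endoderm and yolk sac, had 4.72, 4.98 and 4.94 in GFP+ cells, against 6.26, 6.59 and 6.34 in GFP- cells (2.87-fold lower, SE 0.147, adjusted p = 1.95e-05). Dkk1 was 2.22-fold lower in GFP+ cells (SE 0.134, adjusted p = 0.000115). Sfrp2 was 2.26-fold higher in GFP+ cells (SE 0.18, adjusted p = 0.00124), and its GFP- samples were spread more widely than its GFP+ samples. Axin2 had a log2 difference of 0.04 between the sorts (SE 0.142, adjusted p = 0.963).

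Beside the genes lower in GFP+ cells, markers of other cell types differed between the sorts. All 10 endoderm markers were lower in GFP+ cells (median -1.64), and the log2 of their summed linear values was 8.45 to 8.88 in GFP+ samples, against 10.40 to 10.57 in GFP- samples. Afp and Ttr were the endoderm markers under the olfactory receptor percentile in GFP+ cells, and 0 were in GFP- cells. Of 7 epithelial markers 6 were lower (summed level 8.03 to 8.54 in GFP+ samples, against 10.02 to 10.17 in GFP- samples), and of 8 endothelial markers 3 were lower (7.39 to 7.83 in GFP+ samples, against 8.15 to 8.50 in GFP- samples). Cer1, a secreted antagonist of anterior endoderm, was lower in GFP+ cells as well (log2 difference -1.18), as were 2 of 8 early mesoderm and 3 of 10 proliferation markers. The part of these cell types in the values of Sfrp5, Fzd5 and Dkk1 was not tested.

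The other 6 calls between the sorts were smaller than 1 and were named after their values were seen. Wnt5a (log2 difference 0.87), Fzd1 (0.72), Wnt16 (0.67) and Fzd6 (0.48) were higher in GFP+ cells, and Fzd3 (-0.78) and Wnt3 (-0.75) lower. When each of the 6 samples was left out in turn, the call ended in 6 fits for Fzd6, 4 for Fzd1, 4 for Wnt16, 3 for Fzd3 and 3 for Wnt3, and in 0 for Wnt5a. A fit of the 2 sorts alone ended the calls of Wnt5a (limma adjusted p = 0.0779), Fzd6 (0.0692) and Fzd3 (0.105). Without both samples numbered 3, a fit added after these were seen to stand apart, 7 members passed. Fzd1, Fzd6, Wnt3, Wnt5a and Wnt16 no longer did, Wnt5a with a difference of 0.57 (limma adjusted p = 0.0983). Equal replicate numbers of the sorts deviated together (r from 0.40 to 0.60 across probe sets), while unequal numbers ran from -0.50 to 0.35. Each deviation was taken from the mean of the 3 samples of its sort. This ties the equal and unequal values to each other, so their contrast is partly set by the centring. GFP+ sample 5 with GFP- sample 6 gave 0.35, and GFP+ sample 6 with GFP- sample 5 gave 0.28. The equal pairs 5 and 6 each gave 0.40. These values set the samples numbered 3 apart together, while the pairing of 5 and 6 is less clear. The labels state no pairing. With the replicate number as a block over the 6 day 13 samples, also added after the data were seen, 16 members passed instead of 10, and these included all 10. For this fit and the one without the samples numbered 3, the shares of all probe sets are not given here. The 16 and the 7 are therefore not read as a result about the members. The additional members were Dkk3 (1.13, limma adjusted p = 0.00121), Dkk2 (0.78, 0.00673), Wnt11 (0.82, 0.00794) and Lef1 (0.53, 0.0281), higher in GFP+ cells, and Wnt4 (-0.52, 0.0271) and Fzd4 (-0.58, 0.0302), lower. Without the block Dkk3 had the same difference with a limma adjusted p of 0.0653. Within every numbered pair Dkk3 was higher in the GFP+ sample, as were Dkk2, Wnt11 and Lef1, while Wnt4 and Fzd4 were lower. These pairs rest on the replicate numbers only.

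**Figure D5:**
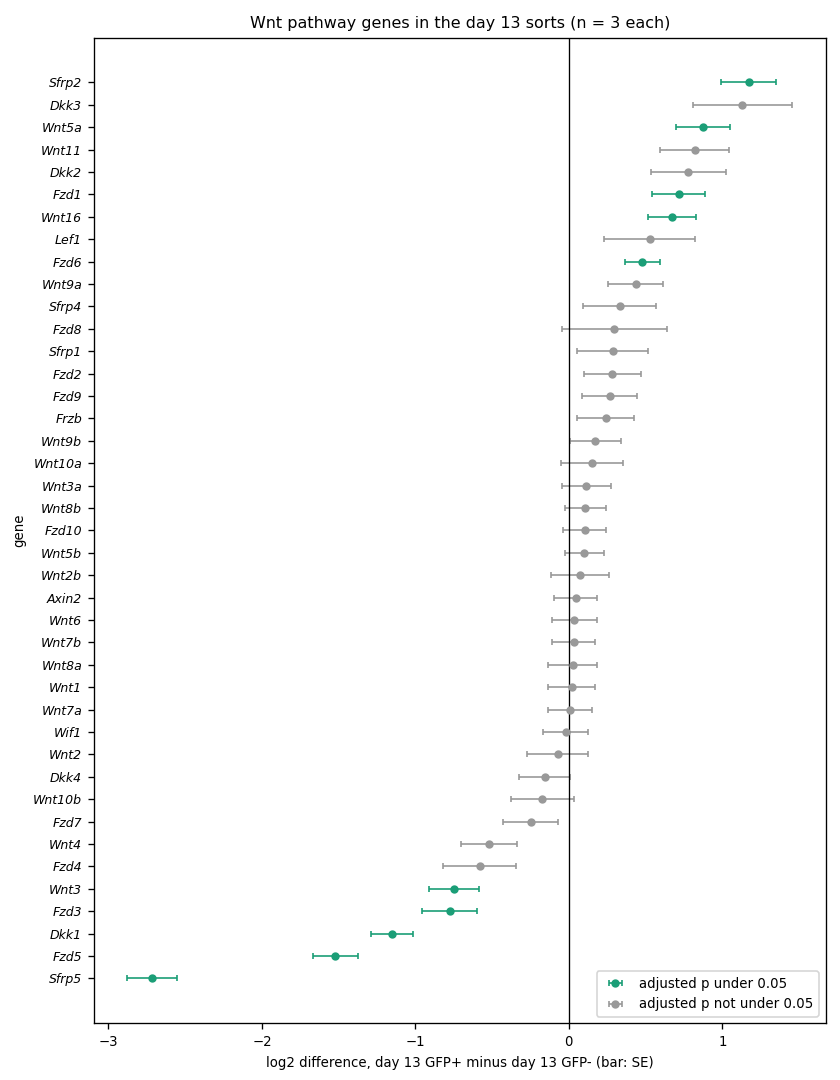
The log2 difference of each of the 41 genes between day 13 GFP+ and GFP- cells (horizontal axis, bar = SE, n = 3 each), sorted by size. Green points passed the limma threshold over all probe sets without a replicate block, with Sfrp5 at -2.72 and Sfrp2 at 1.17 at the ends.

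The lists of the wider pathway were also compared between the sorts, where 4.53% of all probe sets passed in either direction. Ror2 was higher in GFP+ cells (8.19 ± 0.11, against 7.07 ± 0.21 in GFP- cells, log2 difference 1.12, adjusted p = 7.16e-05), the only one of 8 co-receptor genes to pass. Rspo3 (-0.91), Tcf7 (-0.78) and Apcdd1 (-0.97) were the only genes of their lists to pass, of 14, 17 and 13, and all were lower in GFP+ cells. In the planar polarity list Prickle1 was higher (0.81), and Vangl1 (-1.09) and Celsr2 (-0.67) were lower, of 9. Wnt5a and its receptor Ror2 were thus both higher in GFP+ cells, Wnt5a with the exceptions given for the samples numbered 3 and the fit of the sorts alone.

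Both day 13 sorts were set against the aortic smooth muscle cells, the positive controls. These comparisons share the aortic samples. In GFP+ cells 8 members were higher and 9 lower than in the aorta, where 19.5% of all probe sets were higher and 17.7% lower. Differences of at least 1 passed in 14 members (34.1%), against 15% of all probe sets, and 20 members (48.8%) did not overlap, against 44.9%. In GFP- cells 9 were higher and 8 lower, where the shares of all probe sets were 21.7% and 20.2%. Differences of at least 1 passed in 13 members (31.7%), against 17.4% of all probe sets, and 25 members (61%) did not overlap, against 47%. The share of members past the threshold was 41.5% in each, against 37.2% of all probe sets for GFP+ and 41.9% for GFP-. Of 10 antagonists 3 were higher and 5 lower in GFP+ cells, and 4 higher and 5 lower in GFP- cells. Of 10 receptors 2 were higher and 3 lower in GFP+ cells, and 2 higher and 1 lower in GFP- cells.

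Sfrp4, an antagonist known from bone and connective tissue, had values of 3.14, 2.79 and 3.23 in GFP+ and 2.33, 3.09 and 2.74 in GFP- cells, against 7.09, 7.44 and 7.94 in aortic samples 1, 2 and 3. It was 21.6-fold lower in GFP+ cells (SE 0.239, adjusted p = 7.62e-10) and 27.2-fold lower in GFP- cells (adjusted p = 2.61e-10). In all 4 cultured groups its mean lay under the olfactory receptor percentile. Frzb had 9.03, 8.82 and 8.79 in the aortic samples and was 2.8-fold lower in GFP+ and 3.31-fold lower in GFP- cells. Sfrp2 had 8.65, 8.86 and 8.68 in the aortic samples and was 2.03-fold lower in GFP+ and 4.57-fold lower in GFP- cells. Dkk3 had 8.90, 8.62 and 8.70 in the aortic samples. It was 4.05-fold lower in GFP- cells (adjusted p = 0.000107), whereas in GFP+ cells the difference was -0.89 (limma adjusted p = 0.0433), and -0.51 without GFP+ sample 3 (0.217). That call ended in 5 of the 6 fits that left out 1 sample, all but the one without GFP+ sample 6. For Frzb, Sfrp2 and Dkk3 the means of the GFP+ cells lay between those of GFP- and aortic cells. Between the sorts Sfrp2 passed. Frzb (log2 difference 0.24, limma adjusted p = 0.677) and, without the block, Dkk3 (1.13, 0.0653) did not.

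Other antagonists were higher in the cultured cells. Dkk1 had 4.56, 4.85 and 4.84 in the aortic samples, and was 2.84-fold higher in GFP+ and 6.31-fold higher in GFP- cells (adjusted p = 2.41e-07 and 2.85e-10). Dkk2 had 3.74, 3.38 and 3.83 in the aortic samples and was 6.31-fold higher in GFP+ and 3.68-fold higher in GFP- cells. Sfrp1 had 5.19, 5.77 and 6.36 in the aortic samples, the widest aortic spread among the members (SD 0.58), and was 3.46-fold higher in GFP+ and 2.84-fold higher in GFP- cells. Sfrp5 stood at 3.50 in GFP+ cells, the same as in the aorta to 2 decimals, and was 6.56-fold higher in GFP- cells than in the aortic samples, which had 3.31, 3.50 and 3.69.

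Lef1 had 3.82, 4.12 and 3.42 in the aortic samples and was higher in both sorts, 5.98-fold in GFP+ cells (SE 0.297, adjusted p = 4.13e-06) and 4.15-fold in GFP- cells (adjusted p = 3.67e-05). Axin2 had 4.85, 4.50 and 4.80 in the aortic samples and passed in neither comparison. Of the ligands, Wnt11 (log2 difference 1.37) and Wnt5a (1.30) were higher in GFP+ cells than in the aorta, and Wnt16 was lower in both sorts (-0.55 in GFP+ and -1.22 in GFP-). The call of Wnt16 in GFP+ cells ended without GFP+ sample 5 (limma adjusted p = 0.0515) or without aortic sample 3 (0.0621). Wnt5a had 4.38, 4.61 and 4.74 and Wnt16 had 5.48, 5.36 and 5.92 in the aortic samples. Wnt2 (4.08 to 4.88) and Wnt3 (3.48 to 3.65) were low in the aorta as well.

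Of the receptors, Fzd3 and Fzd6 were higher and Fzd8 lower in both sorts than in the aorta. Fzd3 had 3.55, 3.87 and 4.22 in the aortic samples and was 2.32-fold higher in GFP+ and 3.98-fold higher in GFP- cells. Fzd6 had 5.87, 5.87 and 6.23 there and was 2.91-fold higher in GFP+ and 2.09-fold higher in GFP- cells. Fzd8 ran the other way, with 6.75, 6.41 and 6.78 in the aortic samples, and was 2.68-fold lower in GFP+ and 3.29-fold lower in GFP- cells. Fzd4 (7.87, 7.75 and 7.72 in the aorta) and Fzd5 (5.99, 5.98 and 6.19) were lower in GFP+ cells, by 1.14 and 1.17 on the log2 scale. Fzd1 (7.36, 7.27 and 7.66) and Fzd2 (5.89, 5.30 and 5.72) passed in neither comparison.

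Outside the members, Sost and Lgr6 marked the aortic cells. Sost, an antagonist that binds the Lrp co-receptors and is best known from bone, was 3.92 ± 0.24 in GFP+ and 4.18 ± 0.41 in GFP- cells, against 8.21 ± 0.38 in the aorta (log2 difference -4.29 for GFP+ and -4.03 for GFP-). Lgr6, a receptor for R-spondins, was 4.78 ± 0.42 in GFP+ and 4.25 ± 0.21 in GFP- cells, against 8.09 ± 0.18 in the aorta (SD, n = 3 each). Its ligand Rspo3 was higher in the cultured cells, by 2.24 in GFP+ and 3.15 in GFP- cells. Ptk7, a receptor of the polarity branch (3.80 in GFP+, 3.29 in GFP-), the glypican gene Gpc3 (3.30 and 3.48), Ror2 (2.47 and 1.34) and Vangl2 (2.10 and 2.20) were higher in the cultured cells. The feedback gene Nkd1 was lower (-1.81 and -2.59), while Bambi (1.83 and 1.43) and the cyclin gene Ccnd1 (1.21 and 0.95) were higher, so the other beta-catenin targets had 3 of 13 higher and 2 lower in each comparison. In the intracellular chain 7 of 17 were higher and 1 lower in GFP+ cells, and 8 higher and 3 lower in GFP- cells, with Dvl2 at 1.25 and 1.43.

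Beside these differences, marker lists of other cells differed between cultured and aortic samples. Of 8 fibroblast and adventitial markers 6 were lower in GFP+ and 8 in GFP- cells, with a summed level of 8.48 to 9.31 in GFP+ and 8.14 to 8.45 in GFP- samples, against 11.00 to 12.02 in aortic samples. The adipocyte list had a summed level of 6.18 to 6.25 in GFP+ and 6.10 to 6.13 in GFP- samples, against 8.43 to 9.77 in aortic samples, where Adipoq, Cidec and Lep stayed under the olfactory receptor percentile. Endothelial markers were lower in 6 of 8 in GFP+ and 4 of 8 in GFP- cells. Contractile markers were lower in 9 of 10 in GFP+ and 10 of 10 in GFP- cells (11.82 to 12.05 and 10.93 to 11.56, against 13.84 to 13.92), and proliferation markers were higher in 9 and 10 of 10. Endoderm markers were higher in 2 of 10 in GFP+ and 10 of 10 in GFP- cells, and epithelial markers in 4 of 7 in GFP+ and 7 of 7 in GFP- cells. Cardiac muscle markers were higher in 3 of 8 in GFP+ and 4 of 8 in GFP- cells (10.32 to 10.64 in GFP+ and 10.28 to 10.74 in GFP- samples, against 7.44 to 7.57 in aortic samples). Of 7 blood and macrophage markers 4 were lower and 1 higher in each sort. The part of these cell types in the values of the antagonists, lower or higher in culture, was not tested.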

How the data were processed

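Total RNA extracted with QIAzol was labelled with biotin and measured on 1 Affymetrix Mouse Gene 2.0 ST array per sample. The authors deposited log2 expression values, made by RMA with affy 1.36.1 and R 2.15.1 per the submitters' processing notes. That they are log2 is inferred from their range. The genome build and probe set definition are not given in the sources used here. Of 25206 probe sets, 23740 were named by Entrez ID through RefSeq (GRCm38.p6).

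Groups came from the sample titles. All 15 samples were fitted with a mean per group (limma 3.58.1, R 4.3.3; 10 residual and 5.09 prior degrees of freedom, tested on simulated data), with Benjamini-Hochberg adjustment over all probe sets in each of 6 comparisons, at 0.05. Members with a range of group means of at least 2 are given by sample, and those called with a difference of at least 1 are named. The members, lists and tests were chosen with earlier results of these data known. Tbxt was matched as T and Hba-a1 was not analysed here. No scan date was used, and batches of arrays were not analysed. The main fits used no replicate block in any comparison, because the labels state no pairing. Equal replicate numbers of the day 13 pair deviated together at r from 0.40 to 0.60. Those of the other cultured groups gave r between -0.09 and 0.08. A block entered only some of the alternatives. The closing section gives the alternatives tried.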

Additional observations from a re-analysis of the deposited data

How the results depend on the processing

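Across the 6 comparisons 113 calls of single members were repeated under every alternative that kept the member, 1939 repeats in all: 1804 stayed past the threshold in the same direction, 135 kept the direction without passing and 0 turned. Testing against a log2 difference of 1 (treat) left 10 of 20 members called at day 5 against day 0, 13 of 25 for GFP+ and 9 of 24 for GFP- against day 5, 1 of 10 between the day 13 sorts, and 6 of 17 for GFP+ and 9 of 17 for GFP- against the aorta, since it asks for a larger difference. This took 65 of the 135, and the other 70 concern 16 calls, all with a main difference under 1. Leaving out 1 sample gave 18 to 21 members at day 5 against day 0, 22 to 24 and 22 to 23 for GFP+ and GFP- against day 5, 7 to 8 between the sorts, and 15 to 18 and 17 to 21 for GFP+ and GFP- against the aorta. The replicate block over the 6 day 13 samples, added after the data were seen, gave 16 members between the sorts, while a block over the 12 cultured samples, fixed or random, gave 10, and 21, 25 and 25 in the other cultured comparisons. Shares of all probe sets under the alternatives are not given here. Fits of the 2 compared groups alone, array weights, moderation with a trend or robust, 3 scalings and the filter on low probe sets kept each count within 1.5 times, though the fits of 2 groups ended 5 single calls, Wnt5a, Fzd3 and Fzd6 between the sorts, Fzd7 (GFP- against day 5) and Dkk3 (GFP+ against the aorta). Median centring shifted the median difference by up to -0.10. Wnt9a (GFP+ against day 5) and Dkk3 (GFP+ against the aorta) lost their calls under median centring (limma adjusted p = 0.0707 and 0.0526) and under repeated quantile normalization (0.0752 and 0.0531). Signal over background is not recorded, which limits what can be said of low genes.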
